A study of Mus musculus with 12 samples.

Results

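The interferon regulatory factor (IRF) family was followed through embryonic and adult intestinal stroma exposed to LPS. The 8 members, taken by gene symbol from 23329 listed genes, were Irf1, Irf2, Irf3, Irf4, Irf5, Irf7, Irf8 and Irf9. Their transcripts were counted in 12 mRNAseq libraries of primary stromal cells from the small intestine of C57BL6/J mice, which the labels call intestinal myofibroblasts. The cells came from embryos at E14.5, with 6 embryos pooled in a culture, or from adult mice, and were used at passages 2 to 3. Each culture was exposed for 6 h to LPS, a cell wall component of Gram-negative bacteria, at a stated 10 µg/µl, or to PBS as vehicle control. The 4 groups of stage and treatment held 3 libraries each, from 3 cultures per stage, and no group carried a transgene or deletion.

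IRFs are DNA-binding proteins that recognise GAAA repeats in the promoters of interferons and interferon-stimulated genes. After a Toll-like receptor or a nucleic acid sensor is engaged, the kinases Tbk1 and Ikbke activate Irf3 and Irf7, which switch on Ifnb1, the gene for interferon beta. Secreted interferon then acts through a complex that holds Stat2 and Irf9, which binds DNA and raises the transcription of Irf7 and many antiviral genes. Irf1 is induced by NF-kB among others, Irf2 competes with Irf1 for the same DNA, Irf5 acts with the adaptor Myd88 on cytokine genes, and Irf4 and Irf8 serve mainly in blood cells, Irf8 in monocytes and macrophages.

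The start of a gene is where such factors would meet it, so 250 bases before an annotated start of Irf1, Irf2, Irf8 and Irf7 are shown. The start used for Irf7 lies inside its gene span given below, so part of its printed sequence is within the gene. They are RefSeq sequences of GRCm38.p6, at chr11:53769764-53770013 for Irf1, chr8:46739495-46739744 for Irf2 and chr8:120736108-120736357 for Irf8, all on the plus strand, and at chr7:141266425-141266674 on the minus strand for Irf7. Capitals mark matches, on either strand, to the interferon-stimulated response element core (GAAA, any 2 bases, GAAA), the gamma-activated site TTCNNNGAA or the NF-kB consensus.
Irf1: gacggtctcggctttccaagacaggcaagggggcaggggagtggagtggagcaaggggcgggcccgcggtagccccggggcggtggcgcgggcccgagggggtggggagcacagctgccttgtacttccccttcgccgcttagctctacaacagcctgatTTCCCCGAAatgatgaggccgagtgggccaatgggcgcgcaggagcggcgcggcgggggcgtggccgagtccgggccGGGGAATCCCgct
Irf2: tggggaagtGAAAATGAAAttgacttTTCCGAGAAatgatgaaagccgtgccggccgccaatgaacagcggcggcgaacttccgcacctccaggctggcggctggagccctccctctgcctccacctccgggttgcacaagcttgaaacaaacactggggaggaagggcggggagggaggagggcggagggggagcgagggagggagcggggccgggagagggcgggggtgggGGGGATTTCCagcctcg
Irf8: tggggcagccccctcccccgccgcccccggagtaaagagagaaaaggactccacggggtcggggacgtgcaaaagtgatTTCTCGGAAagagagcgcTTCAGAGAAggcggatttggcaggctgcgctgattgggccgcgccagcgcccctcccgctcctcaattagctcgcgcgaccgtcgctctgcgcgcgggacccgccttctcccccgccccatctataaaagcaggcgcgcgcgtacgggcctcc
Irf7: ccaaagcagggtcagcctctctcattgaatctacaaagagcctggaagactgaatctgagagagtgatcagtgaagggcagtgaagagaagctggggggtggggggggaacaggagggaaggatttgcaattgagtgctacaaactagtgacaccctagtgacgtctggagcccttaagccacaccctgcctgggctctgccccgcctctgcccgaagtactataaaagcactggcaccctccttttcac

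The Irf1 sequence held a gamma-activated site, TTCCCCGAA, at -90 to -82 from the start and an NF-kB match, GGGGAATCCC, at -13 to -4. Irf2 was the only member whose windows held the interferon-stimulated response element core, GAAAATGAAA at -241 to -232, beside a gamma-activated site, TTCCGAGAA, at -224 to -216 and an NF-kB match, GGGGATTTCC, at -17 to -8. Irf8 held 2 gamma-activated sites, TTCTCGGAA at -171 to -163 and TTCAGAGAA at -153 to -145. No match overlapped another. The searched windows, of 300 bases, also took 50 bases after the start, and those of Irf3, Irf4, Irf5, Irf7 and Irf9 held none of these letters. The Irf5 window, chr6:29526375-29526674, lay wholly inside the Irf5 gene span. The bases just before the gene span were thus not searched for Irf5, and for Irf7 the window was partly inside the span. Of 32851 such windows over all genes, 3.44% held the response element core, 8.30% the gamma-activated site and 4.51% the NF-kB consensus. A match is a description of letters and not a measured binding site.

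The libraries held between 18850224 and 32672370 counts assigned to genes on the sense strand. Levels are CPM, counts scaled to library size with TMM factors, and differences are log2 fold changes from 1 edgeR fit of all 12 libraries. Of 13038 genes with more than 0.5 CPM in every library of at least 1 group, 7 were members, and Irf4 was not among them. A gene was called at an adjusted p under 0.05. Same-numbered LPS and PBS libraries of a stage deviated together from their group means, with correlations over genes of 0.610 to 0.850. Each LPS test was therefore also made with the replicate number as a block, which compares LPS with PBS within a number. The labels do not state that same-numbered libraries share a culture, and such a pair is called a culture below. Stromal markers (9 genes, among them Col1a1, Acta2 and Vim) summed to between 20794 and 39402 CPM, but 14 macrophage markers were also detected in every library. Their sum was 247, 483 and 2964 CPM in the embryonic PBS libraries 1, 2 and 3 and 200, 1085 and 2224 CPM in the LPS libraries. In adult libraries 1, 2 and 3 it was 207, 65.2 and 68.5 CPM with PBS and 218, 54.1 and 63.6 CPM with LPS. Adult replicate 1 thus held the highest adult sums. Embryonic replicate 3 stood apart by this sum. For the IRF members, it is named where leaving out its libraries changed an order or a call, or moved a called value by more than 1.5 times. Values without it were not kept for the genes of the other lists, so how far those rest on it is not known. In bulk RNA, fewer cells of a type and less RNA per cell cannot be told apart. Lymphocyte markers stayed between 0.0914 and 1.47 CPM in sum. Endothelial markers summed to 1706 and 1771 CPM in adult replicate 2 and to 13.9 and 19.5 CPM in adult replicate 1.

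**Figure D1:**
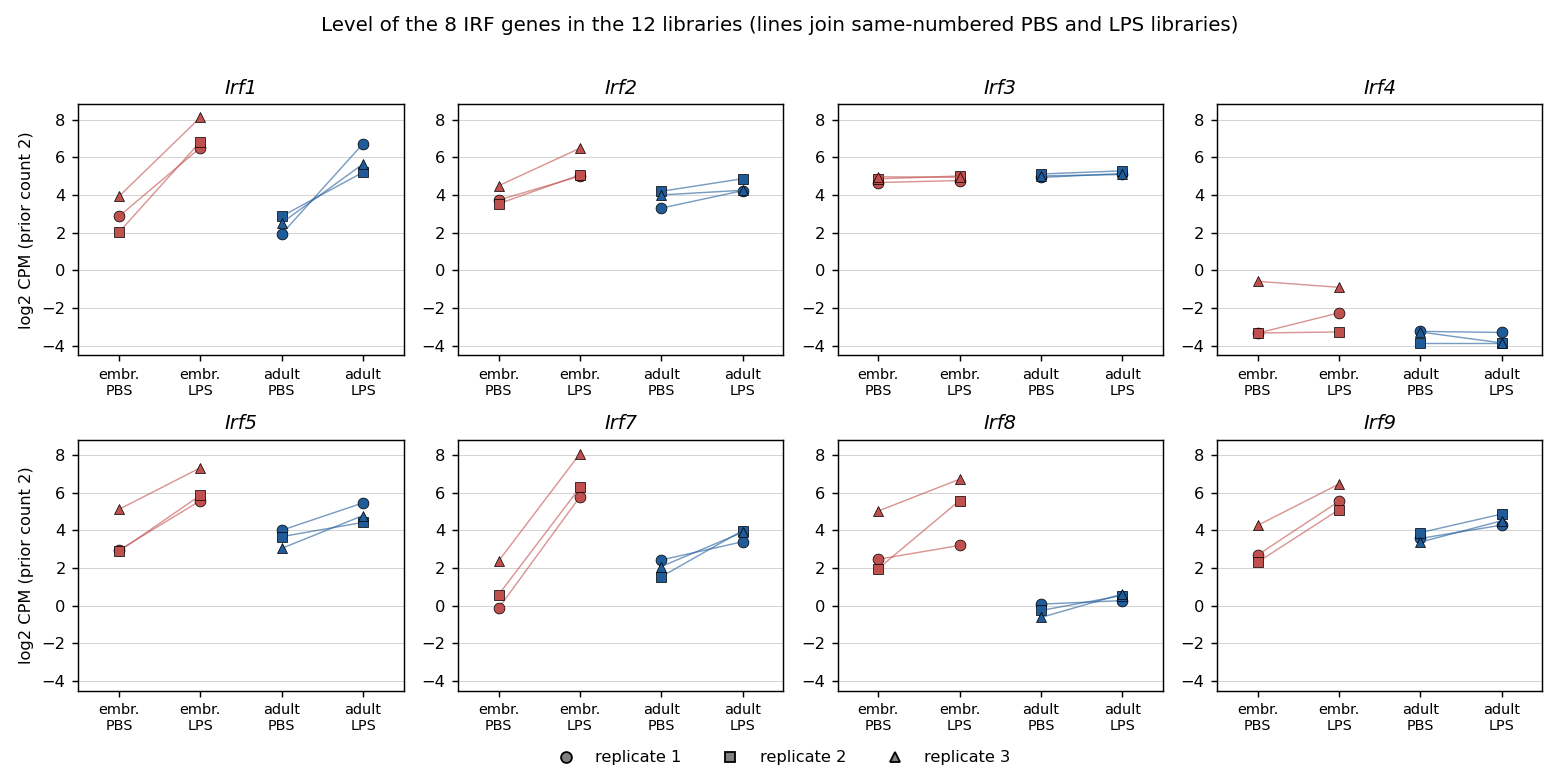
Level of each IRF gene on a log2 CPM axis (prior count 2) in the 4 groups. Each point is a library, its shape the replicate number, and lines join the PBS and LPS libraries of a number. Irf3 is level across all groups, Irf7 climbs most in embryonic stroma, and Irf8 is far lower in adult than in embryonic libraries.

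Irf3, the constitutive factor that is activated by phosphorylation, led the family with PBS at both stages. Per kilobase of exon, its level was 12.96 ± 1.36 CPM per kilobase (SD, n = 3) in embryonic and 14.7 ± 0.935 in adult PBS stroma. Its lowest library lay above the highest library of Irf2, the next gene by mean, at each stage. In embryonic PBS stroma the highest library of Irf5, that of replicate 3, lay above the lowest library of Irf3. In that replicate Irf3 was at 14.19 and Irf5 at 13.05 CPM per kilobase. Within every PBS library Irf3 was the highest member. In embryonic PBS stroma the order of levels after Irf3 was Irf2, Irf5, Irf8, Irf9, Irf1 and Irf7, with overlapping ranges between every pair of neighbours, and Irf4 last at 0.0460 CPM per kilobase. Without embryonic replicate 3 Irf8 came sixth, behind Irf9 and Irf1, and the order of the other genes did not change. In adult PBS stroma it was Irf2, Irf5 and Irf9 with overlapping ranges, then Irf7 and Irf1 with overlapping ranges, then Irf8 at 0.227 CPM per kilobase, and Irf4 at 0.00494.

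With LPS the order was rearranged while Irf3 kept its level. In embryonic LPS stroma Irf7, at 22.9, 32.3 and 112 CPM per kilobase, and Irf1, at 27.2, 33.8 and 82.9, held the top of the order. Irf1 was the higher of the pair in libraries 1 and 2 and Irf7 in library 3, so which came first turned on replicate 3. The means were 55.7 ± 48.9 for Irf7 and 48.0 ± 30.4 for Irf1 (SD, n = 3), and without replicate 3 they were 27.6 and 30.5 (n = 2). Irf5 followed at 33.4 ± 23.3, or 19.9 without replicate 3. Irf3, at 13.6 ± 1.16, was the seventh of the 8 by mean over 3 libraries and the fourth, at 13.5, without replicate 3, when Irf2 and Irf9 lay just below it and Irf8 was at 8.25. Neighbours overlapped all along the order of the 3 libraries down to Irf3. In adult LPS stroma Irf1 came first at 19.1 ± 10.9 CPM per kilobase and overlapped with Irf3 at 16.4 ± 1.16. Of the summed level per kilobase of the 8 genes, Irf3 made up 40.4% on average in embryonic PBS stroma and 8.46% with LPS, and 45.0% and 23.9% in adult stroma. The share of Irf7 went from 2.47% to 24.8% in embryonic stroma and from 5.33% to 8.48% in adult stroma. That of Irf1 went from 6.97% to 23.8% in embryonic and from 5.01% to 26.4% in adult stroma. Without embryonic replicate 3 the embryonic shares of Irf3 were 48.6% with PBS and 10.8% with LPS, those of Irf7 1.88% and 21.8%, and those of Irf1 6.58% and 24.3%. The family total in embryonic stroma was 25.8, 25.0 and 58.6 CPM per kilobase in PBS libraries 1 to 3 and 111, 141 and 363 in the LPS libraries. Its mean was 36.5 ± 19.1 with PBS and 205 ± 138 with LPS (SD, n = 3 each), and 25.4 and 126 without replicate 3 (n = 2 each). The adult family total was 32.8 ± 2.85 with PBS and 69.8 ± 10.99 with LPS (SD, n = 3 each).

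**Figure D2:**
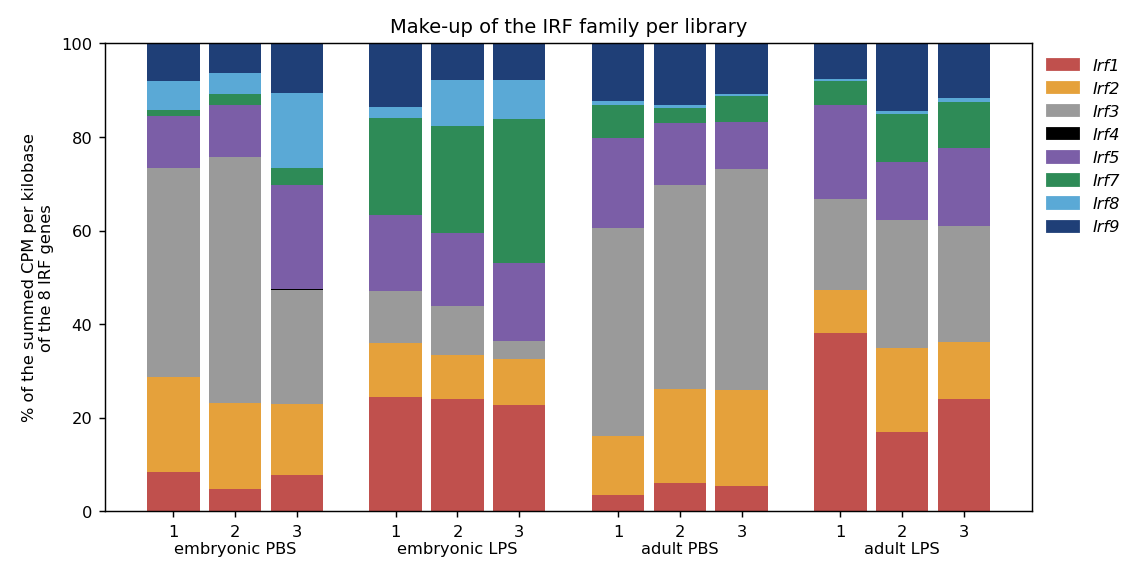
Share of each IRF gene, in percent, in the summed CPM per kilobase of the 8 genes, 1 bar per library and numbered by replicate. Irf3 fills 24.2% to 52.6% of the embryonic PBS bars and 3.83% to 11.2% of the embryonic LPS bars, and Irf7 takes 20.7% to 30.8% of the latter against 5.29% to 10.2% of the adult LPS bars.

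Irf3 itself was at 25.2, 28.8 and 31.1 CPM in embryonic PBS libraries 1 to 3 and at 27.1, 32.0 and 30.5 CPM with LPS. In adult stroma it was at 30.3, 34.4 and 32.0 CPM with PBS and 35.1, 38.7 and 33.8 CPM with LPS. All 12 libraries thus lay between 25.2 and 38.7 CPM. The log2 fold change with LPS was 0.07 in embryonic stroma (95% interval -0.18 to 0.33; adjusted p = 0.999, edgeR) and 0.15 in adult stroma (-0.10 to 0.41; adjusted p = 1). With the replicate block these intervals were -0.10 to 0.25 and -0.02 to 0.33, so a change of 1 log2 unit in either direction lay outside them.

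Irf1, a rapidly induced activator of interferon and immune genes, was the one member called at both stages without the block. It was at 7.23, 3.99 and 15.1 CPM in embryonic PBS libraries 1 to 3 and at 90.8, 113 and 276 CPM in the LPS libraries. In adult stroma it was at 3.73, 7.22 and 5.65 CPM with PBS and at 105, 36.7 and 49.8 CPM with LPS. Every LPS library lay above every PBS library of its stage. Irf1 rose by 4.19 ± 0.65 on the log2 scale (SE) in embryonic stroma, with an adjusted p of 0.0087, and by 3.53 ± 0.64 in adult stroma, with an adjusted p of 0.0426 (edgeR). With the block the changes were 4.20 (adjusted p = 0.0005) and 3.41 (adjusted p = 0.0034). The adult call without the block was lost when any of 6 libraries was left out, the 3 adult PBS libraries, adult LPS libraries 1 and 3, and embryonic PBS library 1, with adjusted p up to 0.248. The embryonic call was lost without embryonic PBS library 1, at an adjusted p of 0.0564, and with the embryonic groups fitted alone (adjusted p = 0.119). The embryonic change was 3.50 without embryonic LPS library 3 and 4.83 without embryonic PBS library 3. With the block both calls held whichever culture was left out, at adjusted p up to 0.0036 and 0.0341, and the adult change was 2.75 without adult culture 1.

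Within same-numbered pairs, Irf1 rose by 3.64, 4.80 and 4.18 log2 units in embryonic and by 4.79, 2.34 and 3.12 in adult stroma. The ranges overlapped, with adult pair 1 as large as the largest embryonic pair. The stage difference, embryonic minus adult, was 0.79 with the block (95% interval -0.53 to 2.11; adjusted p = 0.773, edgeR).

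Irf7, the interferon-induced amplifier of type I interferon production, had the largest change of the family in embryonic stroma. It was at 0.843, 1.43 and 5.11 CPM in the embryonic PBS libraries and at 54.9, 77.3 and 268 CPM with LPS. In adult stroma it was at 5.31, 2.84 and 4.16 CPM with PBS and 10.4, 15.8 and 14.8 CPM with LPS. The lowest embryonic LPS library thus held more Irf7 than the highest adult one, while the PBS libraries of the stages overlapped. Irf7 rose by 5.76 ± 0.82 on the log2 scale (SE) in embryonic stroma, a 54.0-fold change (adjusted p = 0.0060, edgeR), and was called whichever single library was left out, at adjusted p up to 0.0351. The change ran from 4.71 without embryonic LPS library 3 to 6.87 without embryonic PBS library 3. The call was lost with the embryonic groups fitted alone (5.74, adjusted p = 0.135). The adult change was 1.73 ± 0.70, a 3.32-fold change, which was not called without the block (adjusted p = 0.725) and was called with it (1.72, adjusted p = 0.0047). The adult call with the block was lost without adult culture 3, at an adjusted p of 0.0625, and without the block the adult change was called once embryonic culture 3 was left out, at an adjusted p of 0.0285.

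The embryonic pairs of Irf7 differed by 5.91, 5.69 and 5.69 log2 units and the adult pairs by 0.97, 2.45 and 1.82. The embryonic values thus ran only from 5.69 to 5.91, although the cultures differed in level. The smallest embryonic pair lay above the largest adult pair. With the block the stage difference was 4.08 ± 0.34 (SE; adjusted p = 0.0020, edgeR), and it was called whichever culture was left out, at 3.67 to 4.40 and adjusted p up to 0.0160. Without the block it was 4.02 ± 1.00, with an unadjusted p of 0.0024 and an adjusted p of 1.

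Irf9, the DNA-binding part of the complex it forms with Stat2, had the same order of groups at smaller size. It was at 6.41, 4.90 and 19.1 CPM in the embryonic PBS libraries and at 46.6, 34.2 and 87.8 CPM with LPS. In adult stroma it was at 11.8, 14.6 and 10.3 CPM with PBS and 19.3, 29.1 and 22.7 CPM with LPS. LPS and PBS libraries did not overlap at either stage. Irf9 rose by 2.47 ± 0.51 on the log2 scale (SE) in embryonic stroma (adjusted p = 0.0310, edgeR). That call was lost in 8 of the 12 fits that left out 1 library, 5 of them adult libraries, with adjusted p up to 0.138, and with the embryonic groups fitted alone (adjusted p = 0.287). The change was 1.97 without embryonic LPS library 3 and 3.31 without embryonic PBS library 3. With the block the embryonic change was 2.60 (adjusted p = 2.3e-05) and the adult change 0.94 (adjusted p = 0.0091), against 0.95 and an adjusted p of 1 in adult stroma without it. The adult call with the block was lost without adult culture 2 or 3, with adjusted p up to 0.0961.

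Embryonic pairs of Irf9 differed by 2.85, 2.79 and 2.19 log2 units and adult pairs by 0.70, 0.99 and 1.13, with no overlap. The stage difference was 1.66 ± 0.21 (SE) with the block, at an adjusted p of 0.0129 (edgeR). It was lost without any one of the 3 adult cultures, with adjusted p up to 0.0713, and held without any one of the embryonic cultures. Without the block it was 1.52 ± 0.70 with an adjusted p of 1.

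**Figure D3:**
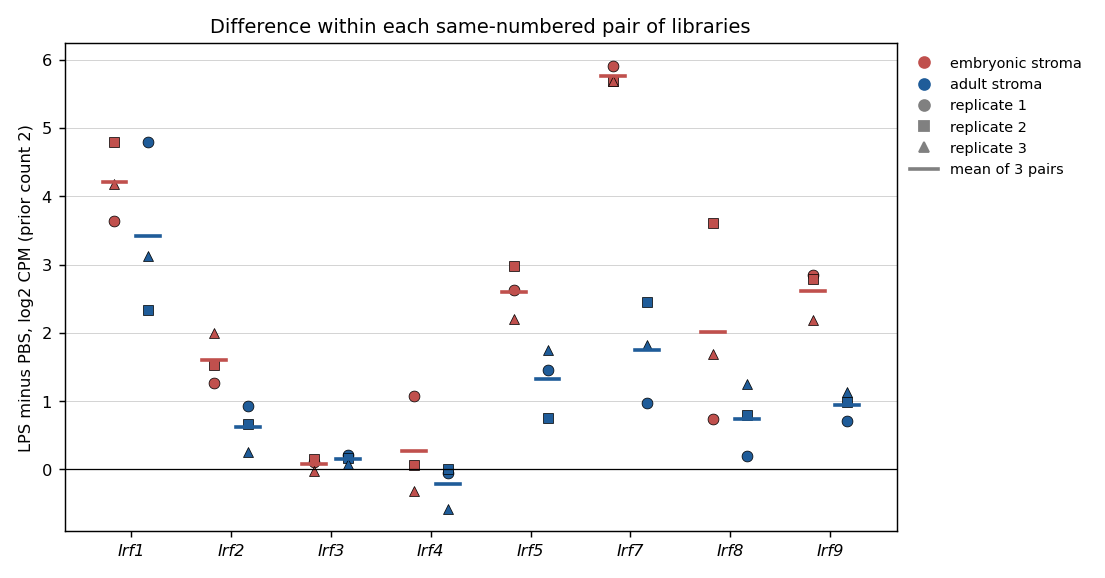
Difference between LPS and PBS in each same-numbered pair of libraries, in log2 CPM (prior count 2), for the 8 IRF genes. Points are pairs, shapes are replicate numbers and bars are means of 3 pairs. For Irf2, Irf5, Irf7 and Irf9 all embryonic points lie above all adult points, and the Irf4 points rest on at most 20 counts.

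Irf2, the competitor of Irf1, moved less. It was at 13.2, 11.5 and 22.3 CPM in embryonic PBS libraries and 31.8, 33.3 and 89.0 CPM with LPS. In adult stroma it was at 9.77, 18.2 and 15.9 CPM with PBS and 18.6, 29.0 and 18.9 CPM with LPS. Libraries did not overlap between treatments at either stage. The embryonic change was 1.71 ± 0.44 on the log2 scale (SE) with an adjusted p of 0.0800 (edgeR) without the block, and it was called at 1.61 (adjusted p = 0.0006) with it. Without the block it was 1.02 without embryonic LPS library 3 (adjusted p = 0.353), and it was called at 1.96 without embryonic LPS library 1 (adjusted p = 0.0478). The adult change was 0.60, or 0.61 with the block, and was called in neither fit (adjusted p = 1 and 0.0817), except with the block and without embryonic culture 3 (adjusted p = 0.0256). All embryonic pairs, at 1.27, 1.53 and 1.99 log2 units, lay above the adult pairs at 0.93, 0.67 and 0.25, but the stage difference of 0.99 (95% interval 0.45 to 1.53 with the block) had an adjusted p of 0.168.

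Irf5, which drives cytokine genes downstream of Myd88, was at 7.65, 7.31 and 34.5 CPM in embryonic PBS libraries and at 47.6, 58.0 and 159 CPM with LPS. In adult stroma it was at 16.0, 12.6 and 8.17 CPM with PBS and at 43.8, 21.4 and 27.5 CPM with LPS. Embryonic replicate 3 held the highest embryonic level with either treatment, as it did for Irf1, Irf2, Irf7, Irf8 and Irf9 and for the macrophage marker sum. The part of macrophages in these levels was not tested. The embryonic change was 2.42 ± 0.68 on the log2 scale (SE; adjusted p = 0.117, edgeR), and 2.59 with the block (adjusted p = 0.0001). Without the block it ran from 1.64 without embryonic LPS library 3 (adjusted p = 0.527) to 3.56 without embryonic PBS library 3, where it was called (adjusted p = 0.0220). It was also called without both libraries of embryonic culture 3, at 2.79 (adjusted p = 0.0092). The adult change of 1.33 was called only with the block (1.32, adjusted p = 0.0082), and not without adult culture 1 or 3, at adjusted p up to 0.0959. The pairs, at 2.63, 2.98 and 2.20 log2 units in embryonic and 1.45, 0.76 and 1.74 in adult stroma, did not overlap, and the stage difference of 1.27 (95% interval 0.62 to 1.92 with the block) had an adjusted p of 0.138.

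Irf8, a factor of monocytes, macrophages and dendritic cells, had the largest stage difference of the tested members with PBS. It was at 5.45, 3.84 and 32.4 CPM in embryonic PBS libraries and at 0.988, 0.770 and 0.579 CPM in adult ones. For this 1 of 7 tested members the embryonic libraries all lay above the adult ones, near the share of 12.5% of all genes tested. The other tested members overlapped between the stages. The log2 difference was 4.15 ± 1.02 (SE), 17.8-fold, and was not called by edgeR (adjusted p = 0.0509). In DESeq2, which called 1552 of 13038 genes, it was 4.15 with an adjusted p of 4.56e-05. The median difference of the 14 macrophage markers was 4.33 in the edgeR fit. Of the 14, 1 was called by edgeR, where 4.08% of all genes were, and 11 by DESeq2. Without embryonic PBS library 3 the Irf8 difference was 2.57 (adjusted p = 0.122), and it was called without embryonic PBS library 2 (4.59, adjusted p = 0.0354) and without embryonic LPS library 1 or 3, at adjusted p of 0.0318 and 0.0417.

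With LPS, Irf8 was at 9.11, 47.6 and 105 CPM in embryonic and at 1.14, 1.38 and 1.47 CPM in adult stroma. The embryonic libraries overlapped between treatments, since PBS library 3 lay above LPS library 1. Pair differences were 0.73, 3.61 and 1.69 log2 units in embryonic and 0.19, 0.79 and 1.25 in adult stroma. The embryonic change was 1.95 ± 0.88 (SE; adjusted p = 0.469, edgeR), and it was called with the block at 2.00 (adjusted p = 0.0271). Without the block it ran from 0.97 without embryonic LPS library 3 to 3.53 without embryonic PBS library 3, and was called in neither case. With the block it was 1.28 without embryonic culture 2 and 2.57 without embryonic culture 1. The call with the block was lost without embryonic culture 3, adult culture 1 or adult culture 3, with adjusted p up to 0.0625. The adult change of 0.77 was not called in either fit. As a share of the macrophage marker sum in the same library, Irf8 was 2.20%, 0.794% and 1.09% in the embryonic PBS libraries and 4.56%, 4.39% and 4.70% in the embryonic LPS libraries. The LPS shares thus lay close together although Irf8 ran from 9.11 to 105 CPM among these libraries. In adult stroma the shares were 0.478%, 1.18% and 0.845% with PBS and 0.522%, 2.55% and 2.31% with LPS. The part of macrophages in the level of Irf8 was not tested. None of the 14 macrophage markers was called for LPS at either stage by edgeR without the block or by DESeq2. At an unadjusted p under 0.05 in edgeR without the block there were 1 in embryonic and none in adult stroma. The share of all genes at that threshold is not given for these comparisons. With the block 3 were higher and 1 lower in embryonic stroma, where 12.5% of all genes were called. None were called in adult stroma, where 6.20% of all genes were.

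Irf4, a factor of lymphocytes and some myeloid cells, was close to the detection limit. It had 1, 1 and 20 counts in embryonic PBS libraries and 4, 1 and 12 with LPS, and at most 1 count in any adult library. The 2 libraries of embryonic replicate 3, those with the highest macrophage marker sums, held its highest levels, 0.597 and 0.466 CPM. A count of 0, as in 3 adult libraries, allows up to 3 counts, or 0.0896 to 0.144 CPM over the 12 libraries, for counting error only. No change with LPS was detectable at this depth.

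**Figure D4:**
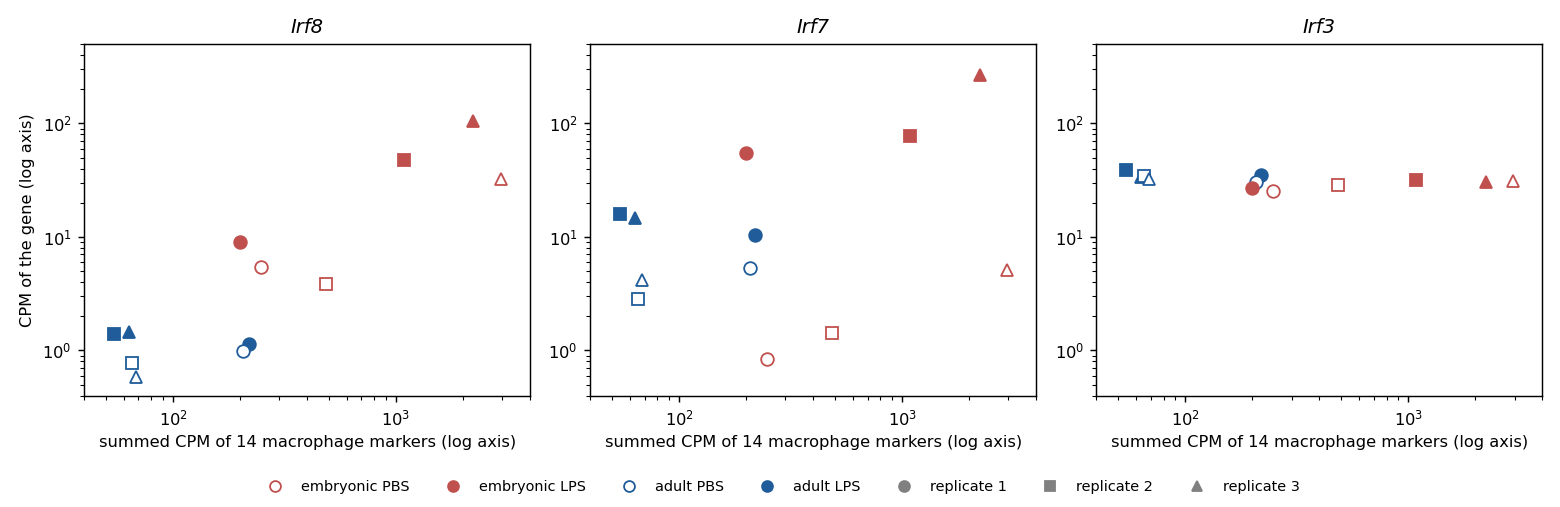
CPM of Irf8, Irf7 and Irf3 against the summed CPM of 14 macrophage markers in each of the 12 libraries, both on log axes. Colour gives the stage, filled points LPS and open points PBS, and shape the replicate number. The embryonic LPS libraries of Irf8 lie along a line of constant ratio, at 4.39% to 4.70% of the marker sum, and Irf3 is flat while the marker sum runs from 54.1 to 2964 CPM.

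Counted over the family, 3 of 7 tested members were called in embryonic stroma without the block, all higher, where 2.75% of all genes tested were called, and 6 of 7 with the block, where 12.5% were. Irf3 was the member not called in either. In adult stroma the counts were 1 of 7, where 0.606% of all genes were called, and 4 of 7 with the block, where 6.20% were. The median log2 fold change of the 7 members was 2.42 in embryonic and 0.95 in adult stroma, against 0.00 and -0.01 for all genes tested. All LPS libraries lay above all PBS libraries for 5 of 7 members in embryonic stroma (7.59% of all genes tested) and for 6 of 7 in adult stroma (9.10% of all genes tested).

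For the stage difference in the change, no gene of 13038 was called by edgeR without the block, 293 (2.25%) had an unadjusted p under 0.05, among them 1 member, Irf7, and DESeq2 called 25 genes, also with Irf7 as the one member (adjusted p = 0.0159). With the block 110 genes were called, 0.844% of those tested, and 2 of 7 members, Irf7 and Irf9. All embryonic pairs lay above all adult pairs for 4 of 7 members, Irf2, Irf5, Irf7 and Irf9, as for 9.66% of all genes tested. With PBS alone none of 7 members was called between the stages by edgeR, where 4.08% of all genes were. There 1 member had an unadjusted p under 0.05 (19.8% of all genes did), and DESeq2 called 1 member among 1552 genes, in each case Irf8. The embryonic and the PBS comparisons share the embryonic PBS libraries. Irf7 was on average lower in embryonic than in adult PBS stroma, at 2.46 ± 2.31 against 4.10 ± 1.23 CPM (SD, n = 3), a log2 difference of -0.74 that was not called (95% interval -2.32 to 0.84), but was called at -1.86 without embryonic culture 3 (adjusted p = 0.0325).

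**Figure D5:**
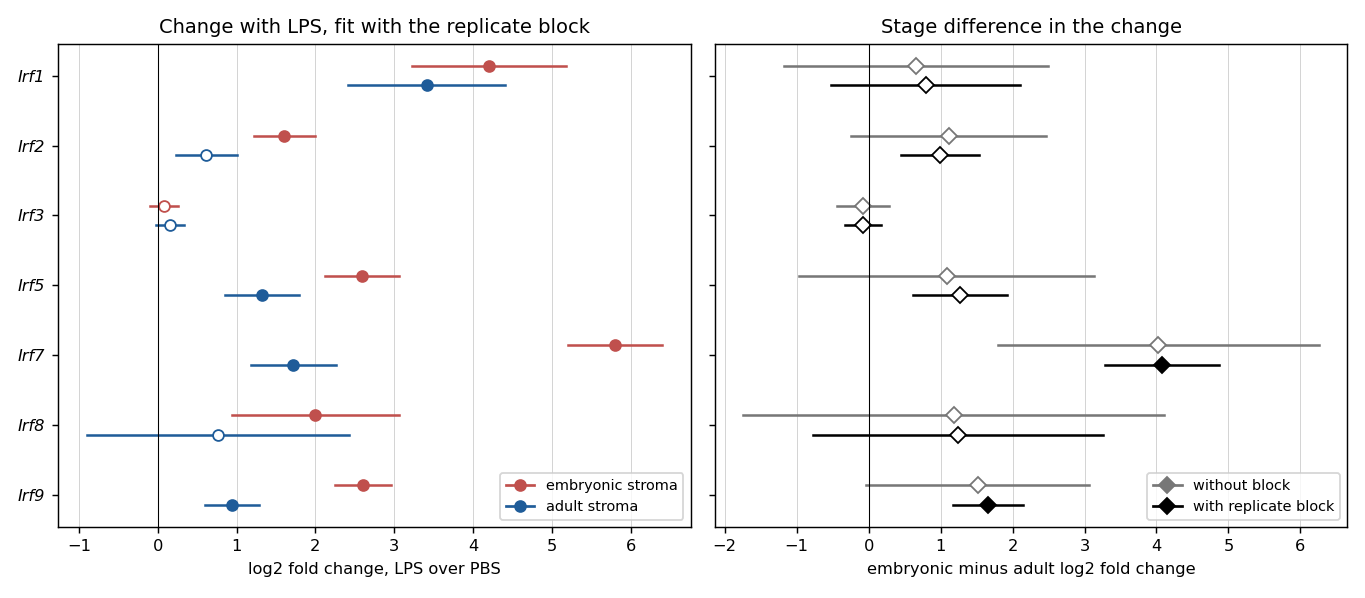
Fitted log2 fold changes of the 7 tested IRF genes with 95% intervals, LPS over PBS by stage in the fit with the replicate block (left), and the embryonic minus adult difference of those changes without and with the block (right). Filled symbols have an adjusted p under 0.05. The left panel has 6 filled embryonic and 4 filled adult symbols, and on the right Irf7 and Irf9 are filled with the block and none without.

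Among the genes that carry a signal to the IRFs, 15 adaptors and kinases were tested. In embryonic stroma 4 of 15 rose without the block and 5 with it, where 2.75% and 12.5% of all genes tested were called. In adult stroma 2 and 3 rose, where 0.606% and 6.20% were called. Ikbke, a kinase of Irf3 and Irf7, rose by 2.82 on the log2 scale in embryonic stroma (adjusted p = 0.0102, edgeR), and by 1.88 in adult stroma with the block (adjusted p = 0.0005). Myd88, the adaptor of most Toll-like receptors, rose by 2.01 in embryonic stroma (adjusted p = 0.0310), and its adult change of 0.56 was not called in either fit. Tank, a scaffold of Tbk1 and Ikbke, rose by 1.39 in embryonic (adjusted p = 0.0023) and 0.91 in adult stroma (adjusted p = 0.0309), and Traf3, a ubiquitin ligase of the same route, by 0.74 and 0.60. Ticam1 and Tbk1, which lead to Irf3, were not called at either stage. None of the 15 was called for a stage difference in either edgeR fit or in DESeq2, and the median embryonic change was 0.36. For the stage difference 2 had an unadjusted p under 0.05 without the block, against 2.25% of all genes (edgeR). With the block 3 did, where the share of all genes is not given.

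Of 12 genes for interferon and its receptor pathway, 7 rose in embryonic stroma without the block and 12 with it. There 2.75% and 12.5% of all genes were called. In adult stroma 1 and 9 rose, where 0.606% and 6.20% were called. Ifnb1 was listed at 0 counts in all 6 PBS libraries and at an average of 12.7 CPM in embryonic and 0.506 CPM in adult LPS stroma. Ifnb1 therefore passed the level filter through LPS libraries only, so its calls are not independent of that filter. It was called in embryonic stroma (adjusted p = 0.0452, edgeR) and, with the block, in adult stroma (adjusted p = 0.0331). Usp18, an inhibitor of the interferon receptor, rose by 7.10 log2 units in embryonic stroma (adjusted p = 0.0023) and by 2.79 in adult stroma with the block (adjusted p = 0.0003). Socs1, an inhibitor of JAK kinases, rose by 4.66 in embryonic stroma (adjusted p = 0.0060), and its adult change of 1.47 was not called in either fit (adjusted p = 0.737, and 0.210 with the block). Stat2, a partner of Irf9, rose by 4.23 in embryonic stroma and, with the block, by 1.64 in adult stroma. Stat2 and Usp18 had called stage differences with the block, at 2.57 and 4.33. The receptor subunit gene Ifnar1 rose by 0.93 in adult stroma (adjusted p = 0.0101), and its stage difference of -0.48 was not called.

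Of 11 DNA-binding partners and cofactors 9 were tested. None was called at either stage by edgeR without the block, with 2 in embryonic and 0 in adult stroma at an unadjusted p under 0.05. DESeq2 called 1 and 0. Of all genes, 2.75% and 0.606% were called by edgeR without the block, and DESeq2 called 684 and 294. With the block 4 rose in embryonic stroma, where 12.5% of all genes were called. In adult stroma, where 6.20% were called, none of the 9 was called, and 2 had an unadjusted p under 0.05. The share of all genes at an unadjusted p is not given for these LPS comparisons. The unadjusted counts are therefore not read as a result. The 4 were Batf at 3.32, Batf2, Ikzf1 at 2.35 and Sfpi1 at 1.37 log2 units, the last of which encodes PU.1, the myeloid partner of Irf4 and Irf8. Sfpi1 was at an average of 19.8 CPM in embryonic and 0.804 CPM in adult PBS stroma. The coactivators Crebbp and Ep300 were not called in any LPS comparison.

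Of 25 textbook IRF target genes 24 were tested. Without the block 18 rose in embryonic and 8 in adult stroma, where 2.75% and 0.606% of all genes were called. With it 24 and 21 rose, where 12.5% and 6.20% were called. Median changes were 5.89 and 2.76 log2 units without the block. Cxcl10, a chemokine, rose by 11.51 in embryonic and 7.53 in adult stroma, and Ccl5, another chemokine, by 11.20 and 8.36. Nos2, which makes nitric oxide, was called at both stages and went from an average of 0.0303 CPM, near the detection limit, to 76.8 CPM in embryonic stroma. A stage difference was called for 12 of the 24 with the block, against 0.844% of all genes, and for none without it. Without the block 12 had an unadjusted p under 0.05 in edgeR, against 2.25% of all genes. DESeq2 called 8 of the 24, and 25 of all genes. The 12 called with the block included Ifit1 at 4.59, Isg15 at 4.10 and Rsad2 at 3.86 log2 units, all antiviral genes, while Ccl5 at 2.71 and Gbp2, a GTPase, at 2.21 were not called.

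The genes whose log2 levels followed each member most closely over the 12 libraries were named by the root mean square distance after removing each gene's mean. For Irf7 these were Isg15 at 0.41 log2 units, Oas1b at 0.48 and Ifih1 at 0.55, against a median over all genes of 2.33. For Irf9 they were Znfx1 and Ddx58 at 0.31 each and Nmi at 0.31, against 1.18. Irf5 also had Znfx1 among its nearest genes, after Rab20 at 0.42 and before Trex1 at 0.49. For Irf1 they were Dtx3l at 0.48, Trim21 at 0.50 and Gm11435 at 0.55. For Irf2 they were Rbm43 at 0.18, Tyk2, a kinase of the interferon receptor, at 0.23 and Cd47 at 0.27. Irf8 had Kynu at 0.44, Dock10 at 0.50 and Adrbk2 at 0.55. The nearest genes of Irf3, Agpat5 at 0.07 and Aig1 and Sfxn1 at 0.08 each, were as level as Irf3 itself, which had a root mean square distance of 0.16 from its own mean.

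The members lie at these GRCm38.p6 positions, all annotated as protein-coding: Irf1 at chr11:53770014-53778374, Irf2 at chr8:46739745-46847458, Irf3 at chr7:44997648-45002848, Irf4 at chr13:30749233-30766981, Irf5 at chr6:29526130-29541869, Irf7 at chr7:141263183-141266499, Irf8 at chr8:120736358-120756694 and Irf9 at chr14:55603985-55610030. Irf3 and Irf7 share a chromosome but not a neighbourhood, as do Irf2 and Irf8.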

How the data were processed

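Primary intestinal stromal cells of embryonic and adult mice, exposed to LPS or PBS, were sequenced as poly(A) stranded libraries with single-end reads. The authors trimmed the reads with Trim Galore, mapped them to GRCm38.p6 with STAR, kept unique alignments with at most 1 mismatch, and deposited raw counts per gene by strand. The sense-strand counts were used; counts on the opposite strand came to 1.14% to 1.98%. Groups came from the labels.

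From the counts, edgeR 4.0.16 (R 4.3.3) fitted the 4 groups of 12 libraries by quasi-likelihood with TMM factors, keeping 13038 genes with CPM above 0.5 in all libraries of a group, with Benjamini-Hochberg adjustment over them. Log2 CPM used a prior count of 2. Same-numbered LPS and PBS libraries were paired within a stage because their deviations correlated in every pair (r of 0.610 to 0.850); across stages they did not (r of at most -0.0022). Libraries of a group differed by more than sampling noise (chi-square per gene of 33.3 to 304). Without the block the p-values cover the spread in level between these cultures. With the block they cover only the spread of the LPS change between same-numbered pairs. Alternatives were DESeq2 1.42.0, its size factors, no filter, unstranded counts, a log2 fold threshold of 2, blocks, groups fitted alone and left-out libraries. Levels per kilobase used union exon lengths from a GENCODE annotation of GRCm38. The levels without embryonic replicate 3 were added after seeing the data. The steps were tested on simulated data.

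The 8 members, the gene and marker lists and the tests were chosen with earlier results of these data known. Named genes were the members, the called genes of a list with the largest changes, others a sentence needed, chosen after their values were seen, and the 3 nearest genes of each member. 3 listed genes were matched by RefSeq synonyms (Adgre1 as Emr1, Spi1 as Sfpi1, Irf2bpl as 6430527G18Rik). Listed cofactors and markers were matched by symbol otherwise. The values of 1 gene counted in the interferon list are not reported here. All per-sample columns were mapped to samples.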

Additional observations from a re-analysis of the deposited data

Results flagged for a closer look

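Irf7 changed differently with LPS at the 2 stages. Its embryonic minus adult log2 fold change was 4.08 in the edgeR fit with the replicate block, with an adjusted p of 0.0020, and all 3 embryonic pairs lay above all 3 adult pairs. Without the block the adjusted p was 1.

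Irf9 also changed differently by this test. Its embryonic minus adult log2 fold change was 1.66 with an adjusted p of 0.0129 (edgeR, replicate block), the pairs did not overlap, and without the block the adjusted p was 1. Unlike that of Irf7, this call was lost without any one of the adult cultures, with adjusted p up to 0.0713. With 3 libraries in each group, no test for a single far value was made.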

How the results depend on the processing

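Counts of called genes moved more than the fold changes of the members. Over all genes, edgeR without the replicate block called 358 in embryonic stroma, 79 in adult stroma, 0 for the stage difference and 532 between stages with PBS, with 3, 1, 0 and 0 of the 7 tested members. The replicate block within each stage gave 1635, 808 and 110 genes and 6, 4 and 2 members. A block across stages, whose numbers did not pair the samples, gave 0 members in adult stroma and 891 genes between stages with PBS, and Irf1 in adult stroma then had an adjusted p of 0.0508. The DESeq2 Wald test gave 684, 294, 25 and 1552 genes, with 5 members in embryonic stroma, 1 for the stage difference and 1 between stages. With the compared groups fitted alone, 4 genes and 0 members were called in embryonic stroma, 227 genes and 2 members in adult stroma and 173 genes between stages. The fold threshold left 291 genes between stages. DESeq2 size factors, no low-count filter and unstranded counts moved no count by over 1.5 times.

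Leaving out 1 library in turn, embryonic counts ran from 114 to 471 genes and 1 to 4 members, adult counts from 4 to 145 genes and 0 to 1 members, and counts between stages from 152 to 638 genes and 0 to 1 members, while the stage difference stayed at 0. With the block and 1 culture left out, the ranges were 1049 to 1990 genes and 5 to 6 members in embryonic stroma, 232 to 1243 genes and 1 to 5 members in adult stroma, and 34 to 164 genes and 1 to 2 members for the stage difference. Leaving out both libraries of a culture without the block, an alternative chosen after seeing the data, gave 114 to 264 genes and 2 to 4 members in embryonic stroma, 2 to 183 genes and 0 to 2 members in adult stroma, 0 to 18 genes and 0 to 1 members for the stage difference, and 83 to 1291 genes and 0 to 1 members between stages. The 18 were found without embryonic culture 3 and included Irf7 at an adjusted p of 0.0277. The cause of these moves was not tested.

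Among the members, directions reversed in these leave-outs only for log2 differences that were not called. Between stages with PBS, the leave-outs ran from -0.25 to 0.29 for Irf2, from -0.72 to 0.78 for Irf5 and from -1.12 to 0.055 for Irf9. The stage difference of Irf1 ran from -0.021 to 1.46, and the embryonic change of Irf3 from -0.0028 to 0.15. Irf4 had at most 20 counts in a library. What depth and the spread between 3 cultures per stage each contributed to missed calls was not tested.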
